A study of Homo sapiens with 6 samples.

Results

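The zinc finger genes of chromosome 19 were described here as a set of regions of RNA polymerase II (RNA pol II) enrichment in HepG2 cells, a human liver tumour line. The members were every enriched region on chromosome 19 whose nearest gene carried a symbol made of ZNF and a number, and there were 2811 of them among the 271336 regions of the 4 lists analysed. Each list came from 1 chromatin immunoprecipitation sequencing (ChIP-seq) library. The antibodies were to RPB1, the largest subunit of RNA pol II, and to RPB1 phosphorylated on serine 2 of its C-terminal repeats (phospho-Ser2 RPB1). Each was used in untreated SHP-1 WT cells and in untreated SHP-1 KO cells. In the latter CRISPR had been used to knock out PTPN6, the gene of the tyrosine phosphatase SHP-1. Which control line served as SHP-1 WT is not given in the sources used here. RPB1 gave 485 member regions of 46045 in SHP-1 WT cells and 430 of 41605 after the knockout. Phospho-Ser2 RPB1 gave 1108 of 102674 and 788 of 81012. The regions fell to 227 gene symbols, 20 of which were not protein coding ZNF genes, and they were read against the 246 coding ZNF genes that GENCODE release 44 places on chromosome 19.

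With 1 library for each antibody and cell type no difference could be tested, so every comparison gives the values of both libraries, and a difference between the cell types cannot be told apart from a difference between 2 libraries or between 2 lines grown from single cells. Intervals are 95% Wilson intervals and cover counting error only. The lists hold no read counts, so sequencing depth is unknown, and the 2 input libraries were not analysed here. Among 11 hepatocyte markers, RPB1 regions were found at 11 in SHP-1 WT and 9 in SHP-1 KO cells and phospho-Ser2 RPB1 regions at 11 in both. Of 9 markers of blood, stromal, endothelial and neuronal cells, 5 and 3 held an RPB1 region and 1 and 2 a phospho-Ser2 RPB1 region, and PTPRC, CD3E, COL1A1 and VWF had none in any list. The promoter of PTPN6 stood 24.0-fold over input for RPB1 in SHP-1 WT and 17.2-fold in SHP-1 KO cells, and 4.03-fold and 5.24-fold for phospho-Ser2 RPB1. This does not measure the SHP-1 protein and so does not test the labels.

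Most of these genes encode proteins that pair a row of C2H2 zinc fingers, which read DNA, with a KRAB domain, which recruits the corepressor TRIM28 and through it the histone methyltransferase SETDB1 and HP1 proteins. Many of them silence transposable elements, and they spread by tandem duplication into clusters of close relatives, most of them on chromosome 19. RNA pol II enters at the promoter with its C-terminal repeats largely unphosphorylated, and phosphorylation on serine 2 accumulates as it elongates and is usually highest near and beyond the polyadenylation site. In the 235 chromosome 19 ZNF genes of at least 5 kb and 2 exons, the median gene had 4 exons over 21.4 kb, and 87.5% of its coding sequence (1556 bp) lay in the last exon, where the fingers are encoded. The median over 16538 coding genes was 9 exons, 30.8 kb and 10.7% (149 bp).

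Promoters of the cluster from ZNF101 to ZNF254 resembled each other at the 3 genes printed here, with and without RNA pol II, and the following stretches were chosen to show it. Each is the 150 bases before the RefSeq start on GRCh38, 5′ to 3′ on the gene's strand, with capitals marking the CCAAT box, the hexamer CCGGAA and the octamer TCACTCAG on either strand. ZNF91, ZNF626 and ZNF208 belong to that cluster, which lies nearest the centromere on the short arm. Neighbours in other clusters were not compared. RPB1 marked the first 2 and no region of any library was assigned to ZNF208. ZNF878 held the strongest RPB1 region of the set and ZNF175 the promoter with the highest ratio of SHP-1 KO to SHP-1 WT.
ZNF91 (chr19:23395472-23395621, reverse strand): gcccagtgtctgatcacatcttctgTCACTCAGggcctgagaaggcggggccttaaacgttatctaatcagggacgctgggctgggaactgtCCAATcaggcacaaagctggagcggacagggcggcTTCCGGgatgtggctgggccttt
ZNF626 (chr19:20661572-20661721, reverse strand): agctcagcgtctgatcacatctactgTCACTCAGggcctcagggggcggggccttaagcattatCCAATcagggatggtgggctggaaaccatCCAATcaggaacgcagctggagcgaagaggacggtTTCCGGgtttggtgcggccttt
ZNF208 (chr19:22010944-22011093, reverse strand): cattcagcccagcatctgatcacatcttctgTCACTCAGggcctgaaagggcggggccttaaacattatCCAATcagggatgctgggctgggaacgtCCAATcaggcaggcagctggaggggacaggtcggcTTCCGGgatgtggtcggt
ZNF878 (chr19:12052962-12053111, reverse strand): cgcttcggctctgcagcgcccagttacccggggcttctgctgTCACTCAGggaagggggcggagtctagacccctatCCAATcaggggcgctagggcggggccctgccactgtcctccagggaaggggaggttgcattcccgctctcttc
ZNF175 (chr19:51571133-51571282, forward strand): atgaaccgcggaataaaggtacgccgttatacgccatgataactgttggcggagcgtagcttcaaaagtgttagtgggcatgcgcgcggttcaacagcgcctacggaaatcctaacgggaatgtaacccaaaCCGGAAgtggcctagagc

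Over these 150 bases ZNF91 and ZNF208 were 84.0% identical, ZNF91 and ZNF626 82.9%, and ZNF626 and ZNF208 80.8%, whereas ZNF175 shared 44.7% with ZNF878 and 52.4% with ZNF208. The strength of RPB1 did not follow this likeness. The ZNF91 promoter read 34.4-fold in SHP-1 WT and 17.6-fold in SHP-1 KO cells, the ZNF626 promoter 28.2-fold and 7.24-fold, and ZNF208 had no region within 1 kb of its start in any library.

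RefSeq promoter windows of 300 bases (250 before and 50 after the start) could be matched for 216 of the 246 genes. CCGGAA, the core bound by ETS factors, was present in 56.0% of them and in 17.6% of all 27305 promoter windows. CCAAT, the core bound by NF-Y, was present in 53.7% against 35.7%, and GGGCGG, a GC box, in 67.6% against 44.6%. TATAAA was present in 1.85% against 12.0%. In the 8450 windows of all genes with an RPB1 promoter region in both cell types, the shares were 30.1%, 36.6%, 71.3% and 4.98% in this order. The 151 ZNF windows chosen in that way had 51.7%, 55.6%, 68.2% and 2.65%, so the GC box was not more frequent in them. The octamers TCACTCAG and CCAATCAG, which were picked out after the promoters had been seen and of which the second contains CCAAT, were present in 16.7% and 26.4% of the ZNF windows and in 1.52% and 4.16% of all windows. TCACTCAG was kept within 3 clusters, in 22 of 29 windows of the cluster from ZNF101 to ZNF254, 13 of 24 from ZNF653 to ZNF791 and 1 of 5 from ZNF554 to ZNF77. CCGGAA was spread over every cluster and was found in 23 of 29, 23 of 32 and 37 of 54 windows of the clusters from ZNF101 to ZNF254, ZNF175 to ZNF331 and ZNF628 to ZNF446. The same letters were present at genes without any assigned region. Of the 31 such windows CCGGAA was in 67.7%, against 51.7% of the 151 windows of genes with an RPB1 promoter region in both cell types. TCACTCAG was in 22.6% against 16.6%, GGGCGG in 74.2% against 68.2%, CCAAT in 51.6% against 55.6%, CCAATCAG in 25.8% against 27.8%, and TATAAA in 0 against 2.65%. A match of letters is not evidence of a bound factor.

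Phospho-Ser2 RPB1 was also found inside the exon that encodes the fingers. The 2 windows below, each 300 bases around the summit of a phospho-Ser2 RPB1 region of SHP-1 WT cells, lie wholly within the coding part of a last exon, and the capitals mark GAGAAACC or GAGAAGCC, bases of the stretch that encodes the conserved linker between neighbouring fingers.
ZNF528 (chr19:52416267-52416566, forward strand, exon 7 of 7): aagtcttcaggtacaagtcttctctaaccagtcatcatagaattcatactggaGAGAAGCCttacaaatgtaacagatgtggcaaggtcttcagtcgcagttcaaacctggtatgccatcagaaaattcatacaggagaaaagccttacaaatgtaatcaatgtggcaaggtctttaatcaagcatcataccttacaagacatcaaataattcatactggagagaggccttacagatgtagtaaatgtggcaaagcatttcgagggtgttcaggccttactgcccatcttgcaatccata
ZNF77 (chr19:2934019-2934318, reverse strand, exon 4 of 4): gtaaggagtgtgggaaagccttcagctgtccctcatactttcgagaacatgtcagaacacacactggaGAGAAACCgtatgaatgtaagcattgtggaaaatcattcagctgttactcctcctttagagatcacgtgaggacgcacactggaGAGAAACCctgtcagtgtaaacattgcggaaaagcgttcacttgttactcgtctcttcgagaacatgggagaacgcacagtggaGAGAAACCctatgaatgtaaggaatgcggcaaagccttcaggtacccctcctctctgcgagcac

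The ZNF528 region stood 6.61-fold over input with 1 linker match in the window and the ZNF77 region 4.57-fold with 3. In SHP-1 WT cells 47 phospho-Ser2 RPB1 summit windows of 34 ZNF genes were wholly coding and 27 of them (57.4%) held a linker match, and in SHP-1 KO cells there were 24 windows of 22 genes with 13 (54.2%). RPB1 had 7 such windows in each cell type. Over all SHP-1 WT phospho-Ser2 RPB1 regions annotated as exon, 24 of 103 windows (23.3%, 16.2 to 32.3%) held a match, as did 43 of 289 at 3′ ends (14.9%, 11.2 to 19.4%), against 2.99% at promoters and 2.48% in introns. Among the other genes of chromosome 19 the shares were 5.51% for exons and 4.05% for 3′ ends, and consecutive 300-base windows of the whole chromosome gave 4.11%. Tandem copies are close relatives, but the likeness of their finger exons was not measured. How reads that map to several copies were treated may bear on these regions, and it is not given in the sources used here.

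RPB1 and phospho-Ser2 RPB1 were distributed differently over the genes. Of the RPB1 regions 253 (52.2%, 47.7 to 56.6%) in SHP-1 WT and 251 (58.4%, 53.7 to 62.9%) in SHP-1 KO cells were promoter regions, within 1 kb of a start, against 44.6% and 47.4% over all genes. Introns held 24.3% and 20.2% of RPB1 regions, and 3′ ends, which are the regions annotated as 3′ UTR or downstream, held 10.3% and 8.60%. Phospho-Ser2 RPB1 had a smaller promoter share, 201 regions (18.1%, 16.0 to 20.5%) in SHP-1 WT and 165 (20.9%, 18.2 to 23.9%) in SHP-1 KO cells. Its 3′ end share was 26.1% (289 regions, 23.6 to 28.7%) and 26.3% (207 regions, 23.3 to 29.4%), where all genes together had 14.0% and 14.9%. Regions were also counted by position, from 1 kb before to 3 kb after the end of the assigned transcript. The shares were then 17.8% (15.6 to 20.1%) and 16.6% (14.2 to 19.4%) against 14.5% and 15.3%. This count still rests on the assigned transcript, which only 32.5% of the 249 SHP-1 WT phospho-Ser2 RPB1 regions annotated as 3′ UTR overlapped. Why the gap to all genes was smaller by this count was not tested. By the same positional count RPB1 had 8.45% and 10.0%, against 16.3% and 16.5%. The intron share of phospho-Ser2 RPB1 was lower than over all genes, 36.4% and 34.0% against 44.5% and 43.2%, and the gap lay in introns after the first, with 19.9% and 17.1% against 32.5% and 31.7%. The first intron held 16.5% and 16.9%, above the 12.0% and 11.5% of all genes.

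**Figure D1:**
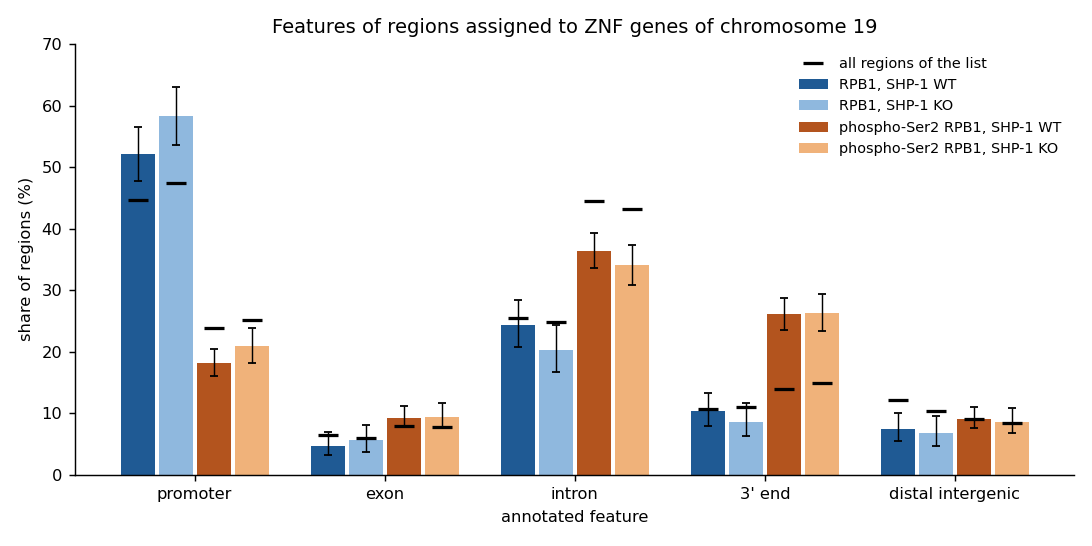
Share of enriched regions (percent, vertical axis) by annotated feature (horizontal axis), with 1 bar for each of the 4 libraries, 95% Wilson intervals for the ZNF genes and a black dash for all regions of the same list. The ZNF genes had 52.2% of RPB1 regions at promoters in SHP-1 WT cells, and 26.1% of phospho-Ser2 RPB1 regions at 3′ ends against 14.0% for all genes.

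The gene named for a region was the nearest start and not always the gene the region lay in. Of RPB1 member regions 68.5% in SHP-1 WT and 73.3% in SHP-1 KO cells overlapped the assigned transcript, and of phospho-Ser2 RPB1 regions 43.0% and 43.4%. ZNF93, a repressor of LINE-1 elements, was an example. It held 4 phospho-Ser2 RPB1 regions in each cell type over 6.51 and 6.44 kb, among them chr19:19893453-19895584 at 6.73-fold in SHP-1 WT and chr19:19895795-19899235 at 11.7-fold in SHP-1 KO cells, both upstream of its start at 19900946, and the first covered the 3′ end of the neighbouring ZNF253. For this reason the results along the gene are given by position.

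By position, within 1 kb of the canonical start, RPB1 was found at 199 of the 246 genes in SHP-1 WT and 200 in SHP-1 KO cells and phospho-Ser2 RPB1 at 114 and 100, while 41 genes had no start region in any library. By the assigned gene, an RPB1 promoter region was found at 174 genes (70.7%, 64.8 to 76.1%) and 175 genes (71.1%), against 51.7% and 50.4% of all coding genes. A phospho-Ser2 RPB1 region anywhere was assigned to 173 (70.3%) and 143 (58.1%), against 52.2% and 47.5%. Regions of all 4 libraries were assigned to 126 genes, and 39 had none. Of those 39, 8 carried RPB1 at the start under another name, often that of a gene that shares the start. The ZNF382 start, 47.9-fold in SHP-1 WT and 43.8-fold in SHP-1 KO cells, was listed under ZNF529, the ZNF625 start (37.1-fold and 18.3-fold) under a readthrough gene, the ZNF865 start (27.5-fold and 22.6-fold) under FIZ1, and the ZNF570 start (18.9-fold and 7.37-fold) under ZNF569. The other 31 genes were without a start region in any library. They included all 12 such genes of the cluster from ZNF101 to ZNF254 (ZNF208, ZNF257, ZNF676, ZNF729, ZNF98, ZNF492, ZNF99, ZNF723, ZNF728, ZNF730, ZNF681 and ZNF726) and 9 at the end of the long arm (ZNF667, ZNF471, ZNF470, ZNF835, ZNF154, ZNF671, ZNF418, ZNF135 and ZNF132). ZNF536, a gene of neurons that stands alone on the chromosome, had no region in any library.

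The strongest RPB1 promoters reached several times the level of the median ZNF promoter. In SHP-1 WT and KO cells the fold over input was 72.9 and 47.4 at ZNF878, 68.3 and 58.8 at ZNF296, 67.0 and 43.4 at ZNF556, 53.5 and 28.8 at ZNF428 and 51.8 and 32.5 at ZNF440. Each of the 5 was lower in the SHP-1 KO library. The median of the strongest promoter region per coding ZNF gene was 19.6-fold (range 3.73 to 72.9) in SHP-1 WT and 13.2-fold (3.69 to 58.8) in SHP-1 KO cells. Over all 12231 and 11829 genes with an RPB1 promoter region, noncoding ones included, it was 26.1-fold and 18.998-fold. Of the coding ZNF genes 53 of 174 (30.5%) and 55 of 175 (31.4%) lay above the median of all genes. ZNF promoters were therefore marked more often than those of all coding genes, and at a lower level than the marked promoters of all genes. Levels of phospho-Ser2 RPB1 at the same promoters come from another antibody and are not on the same scale. They read 5.86-fold and 7.95-fold at ZNF878, 2.43-fold and 3.09-fold at ZNF296, and 8.03-fold and 5.39-fold at ZNF556. The median phospho-Ser2 RPB1 promoter region of the ZNF genes read 4.06-fold in SHP-1 WT and 4.07-fold in SHP-1 KO cells, against 3.87-fold and 4.02-fold over all genes. The median over all phospho-Ser2 RPB1 member regions was 3.90-fold in SHP-1 WT and 4.05-fold in SHP-1 KO cells.

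ZNF556 and ZNF787 were among the genes with most regions. ZNF556 held 11 and 13 RPB1 regions and 16 phospho-Ser2 RPB1 regions in each cell type, the latter over 11.6 kb in SHP-1 WT and 9.95 kb in SHP-1 KO cells. ZNF787 held 31 and 20 phospho-Ser2 RPB1 regions over 18.2 and 12.1 kb, the longest cover of the set by assigned gene. Its 3′ end region, chr19:56083378-56087771 in SHP-1 WT cells, reached 14.5-fold, the highest phospho-Ser2 RPB1 value of a ZNF gene in that library. The same end read 12.1-fold in SHP-1 KO cells. ZNF780B had 17.2 and 16.6 kb, ZNF444, whose product carries a SCAN domain in place of KRAB, 14.3 and 10.9 kb, ZNF546 12.5 and 7.69 kb, and ZNF460 12.2 and 10.5 kb. ZNF460 was assigned no RPB1 promoter region, but a region at its start, 15.2-fold and 13.8-fold, was listed under its antisense gene.

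Followed along the gene, phospho-Ser2 RPB1 was found less often in the interior and the coding last exon than in the 3′ UTR and beyond. For 189 ZNF genes in SHP-1 WT cells with RPB1 at the start, phospho-Ser2 RPB1 was found at the start in 55.0%, in the interior in 37.0%, in the coding part of the last exon in 38.6%, in its 3′ UTR in 58.2% and in the 3 kb after the gene end in 70.4%. All genes selected in the same way had 66.4% in the interior, 28.8% in the coding part of the last exon, 51.9% in the 3′ UTR and 71.7% after the end. Their interior was longer, with a median of 28.4 kb against 15.9 kb, which bears on the share of genes marked there. The share of genes marked was thus lower than over all genes in the interior and similar after the end, but less of the stretch after the end was covered. Phospho-Ser2 RPB1 covered 3.06% of the interior bases of the ZNF genes in SHP-1 WT cells against 5.94% for all genes. It covered 13.9% of the coding part of the last exon against 21.1%, 27.6% of the 3′ UTR against 28.9%, and 28.9% of the 3 kb after the end against 39.8%. For the 189 genes of SHP-1 KO cells the shares were 47.6% at the start, 24.9% in the interior, 22.8% in the coding part of the last exon, 38.6% in the 3′ UTR and 52.9% after the end, and all genes had 52.1%, 58.3%, 24.97%, 46.5% and 66.4%. RPB1 itself was found in the interior of 30.2% and 24.3% of the genes, against 54.1% and 51.1% of all genes, and after the end in 21.2% and 16.9%, against 35.5% and 34.0%. In the profile the share of ZNF genes with phospho-Ser2 RPB1 in SHP-1 WT cells was highest 1.05 kb after the end, at 36.5%. At that point it was 22.8% in SHP-1 KO cells, and other genes had 45.5% and 39.9%. At mid-gene it was 2.12% and 2.65% against 12.8% and 10.7%.

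**Figure D2:**
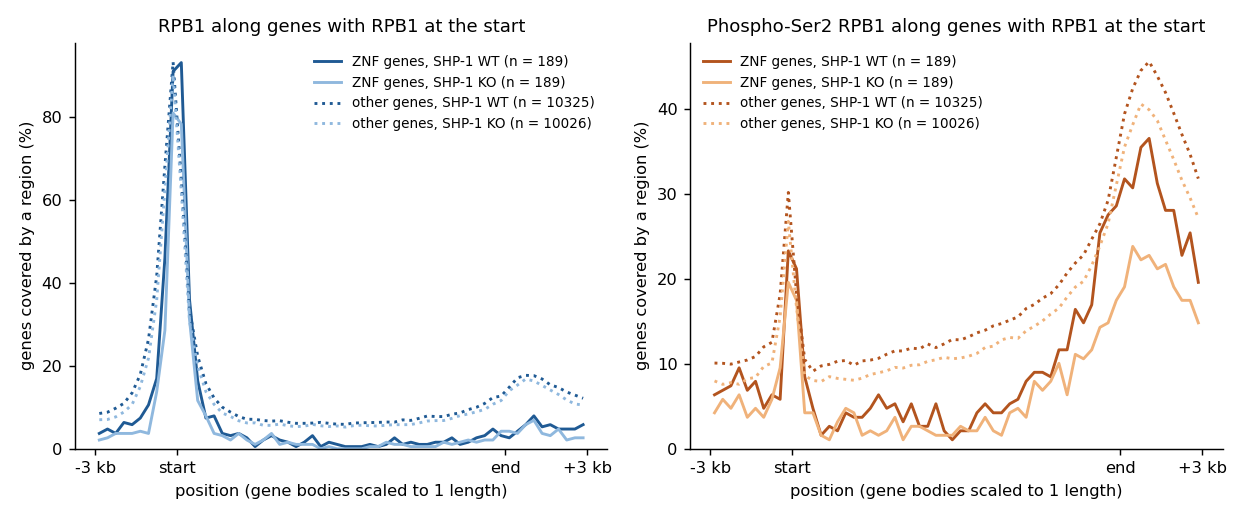
Share of genes (percent) covered by an RPB1 or phospho-Ser2 RPB1 region at each point from before the start to after the end, for ZNF genes (solid) and other genes (dotted) with RPB1 at the start, in SHP-1 WT and KO cells. Gene bodies are scaled to equal length, and the ZNF curve of phospho-Ser2 RPB1 runs near 2.12% at mid-gene and peaks at 36.5% in SHP-1 WT cells after the end.

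Phospho-Ser2 RPB1 regions seldom coincided with RPB1 regions away from the promoter. In SHP-1 WT cells 287 of 1108 (25.9%, 23.4 to 28.6%) overlapped an RPB1 region of the same cells, where the share over all genes was 24.2%. For SHP-1 KO cells it was 220 of 788 (27.9%, 24.9 to 31.2%) against 26.1%. Both were near the background, and the other genes of chromosome 19 had 48.3% and 48.0%. At promoters the overlap was 77.6% and 77.0%, above the 53.8% and 55.7% of all genes. In introns it was 13.6% and 16.0%, against 10.6% and 11.8% of all genes. Exons had 19.4% and 20.3%, near the 19.6% and 20.6% of all genes. At 3′ ends it was 14.2% and 11.6%, below the 21.0% and 22.3% of all genes. Those 3′ end regions that did meet RPB1 in SHP-1 WT cells had a median of 6.35-fold, and those that did not had 3.87-fold. In the other direction 45 of 50 RPB1 regions at 3′ ends (90.0%, 78.6 to 95.7%) lay under phospho-Ser2 RPB1 in SHP-1 WT cells, against 84.7% over all genes, and 29 of 37 (78.4%, 62.8 to 88.6%) in SHP-1 KO cells, against 86.2%.

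Genes with both forms had stronger promoters. Counting every symbol of the set with an RPB1 promoter region, 157 of 190 (82.6%) in SHP-1 WT cells also had a phospho-Ser2 RPB1 region, against 79.6% of all genes, and 135 of 191 (70.7%, 63.9 to 76.7%) in SHP-1 KO cells, against 75.0%. Among the 246 coding genes of SHP-1 WT cells 145 had both, 29 an RPB1 promoter region alone, 28 a phospho-Ser2 RPB1 region alone and 44 neither. In SHP-1 KO cells the counts were 123, 52, 20 and 51. The median RPB1 promoter fold was 20.5 with and 13.8 without phospho-Ser2 RPB1 in SHP-1 WT cells, and 16.1 and 9.89 in SHP-1 KO cells. By position, 11 of the 29 genes with an RPB1 promoter region alone in SHP-1 WT cells and 17 of the 52 in SHP-1 KO cells carried phospho-Ser2 RPB1 listed under another gene. ZNF529 and ZNF473, whose product takes part in the 3′ end processing of histone pre-mRNA, were of this kind. No phospho-Ser2 RPB1 region was assigned to either, but by position ZNF529 held 4 in each cell type and ZNF473 held 4 and 2. The promoter listed under ZNF529 was the strongest of its cluster, at 47.9-fold and 43.8-fold, and that of ZNF473 read 10.6-fold and 7.24-fold. ZNF439 read 22.0-fold and 7.89-fold for RPB1 and had no phospho-Ser2 RPB1 region by assignment or by position.

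Fewer regions were listed in SHP-1 KO cells, and for phospho-Ser2 RPB1 the ZNF genes had a lower ratio than the whole list. The ratio of region counts, SHP-1 KO over SHP-1 WT, was 0.887 for RPB1 against 0.904 over all genes, and 0.711 for phospho-Ser2 RPB1 against 0.789. ZNF genes of other chromosomes had 0.938 and 0.781 and the other genes of chromosome 19 had 0.809 and 0.754. The length covered by RPB1 was 344 kb in SHP-1 WT and 270 kb in SHP-1 KO cells (0.785), and by phospho-Ser2 RPB1 611 and 420 kb (0.689, against 0.808 over all genes). When only regions with a deposited −log10 q-value no lower than 5 were kept, the RPB1 counts were 304 and 292 and the phospho-Ser2 RPB1 counts 554 and 391, ratios of 0.961 and 0.706 against 0.913 and 0.804 over all genes.

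Of the RPB1 regions of SHP-1 WT cells 183 of 485 had no overlapping region in SHP-1 KO cells, where 38.1% of all regions had none, and 101 of 430 the other way round, against 25.1%. For phospho-Ser2 RPB1 the counts were 555 of 1108, against 47.8%, and 186 of 788, against 30.1%. The first 3 were close to the background and the last lay below it, since 76.4% (73.3 to 79.2%) of the phospho-Ser2 RPB1 regions of SHP-1 KO cells were met in SHP-1 WT cells against 69.9% over all genes. This was not particular to the set, since the other genes of chromosome 19 had 79.4% and ZNF genes of other chromosomes 74.7%. The shares differed by class, since 85.4% of RPB1 promoter regions of SHP-1 WT cells were met in SHP-1 KO cells (76.5% over all genes), but 35.6% of intron regions (45.5%) and 40.0% of 3′ end regions (60.1%). ZNF genes of other chromosomes had 84.2%, 44.6% and 72.9% in the same order. For phospho-Ser2 RPB1 the shares were 61.7% at promoters, 40.9% in introns and 56.1% at 3′ ends. Over all genes they were 62.1%, 43.0% and 63.6%, so promoters and introns were near the background. Regions without a counterpart were the weaker ones. Unshared RPB1 promoter regions had a median of 4.51-fold and shared ones 19.1-fold, and phospho-Ser2 RPB1 regions 3.65-fold and 4.41-fold.

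At the level of the gene, 5 of 190 symbols with an RPB1 promoter region in SHP-1 WT cells (2.63%) had none in SHP-1 KO cells, against 8.00% of all genes. The other way round there were 6 of 191 (3.14%), against 4.88%. ZNF genes of other chromosomes were alike, with 3.02% each way, and the other genes of chromosome 19 had 10.1% and 3.13%. The 5 were ZNF93 (5.01-fold), ZNF544 (4.91-fold), ZNF530 (4.59-fold), ZNF561 (4.51-fold) and ZNF221 (3.73-fold), all near the lower end of the range. By position ZNF544 and ZNF561 kept stronger start regions listed under neighbours, 17.2-fold and 16.9-fold at ZNF544 and 23.6-fold and 17.8-fold at ZNF561, so the absence held by position for ZNF93, ZNF530 and ZNF221. The strongest of the promoters listed in SHP-1 KO cells alone were ZNF283 (14.6-fold), ZNF225 (8.74-fold), ZNF486 (7.22-fold), ZNF85 (5.47-fold) and ZNF230 (4.53-fold). RPB1 was present in SHP-1 WT cells at the starts of ZNF283 (16.7-fold), ZNF225 (11.8-fold) and ZNF230 (10.2-fold) under other names, and the call held by position for ZNF486 and ZNF85.

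The promoter signal itself was lower in the SHP-1 KO list for most genes, as it was genome wide. Over 185 symbols with an RPB1 promoter region in both cell types the median ratio was 0.690 (quartiles 0.566 and 0.855, range 0.257 to 2.18), against 0.727 over 11252 genes, 0.698 for the other genes of chromosome 19 and 0.695 for ZNF genes elsewhere. The ratio was below 1 at 160 symbols and above 1 at 25. More than 1.5 times lower were 85 (45.9%, 38.9 to 53.1%), against 38.2% of all genes, and more than 1.5 times higher were 3 (1.62%), against 2.12%. After division by the median of all genes the ZNF median was 0.949, with 21 lower and 17 higher by the same measure. The share of all genes past these scaled limits was not counted, so these 2 counts have no background. The lowest ratios were those of ZNF626 (28.2-fold and 7.24-fold), ZNF583 (19.1 and 5.61), ZNF808, which is needed for the development of the pancreas (24.9 and 7.47), ZNF439 (22.0 and 7.89) and ZNF579 (24.7 and 9.77). The 3 that were higher were ZNF175 (5.08 and 11.1), ZNF254 (13.9 and 25.1) and the pseudogene ZNF788P. The ZNF254 region, chr19:24032965-24034319 in SHP-1 WT cells, lay at an alternative start, and no region was found within 1 kb of the canonical start at 24087187. Next in order were ZNF581 (3.73 and 5.30), ZNF607 (18.0 and 24.2) and ZNF226 (10.4 and 12.9), which stayed within 1.5 times.

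**Figure D3:**
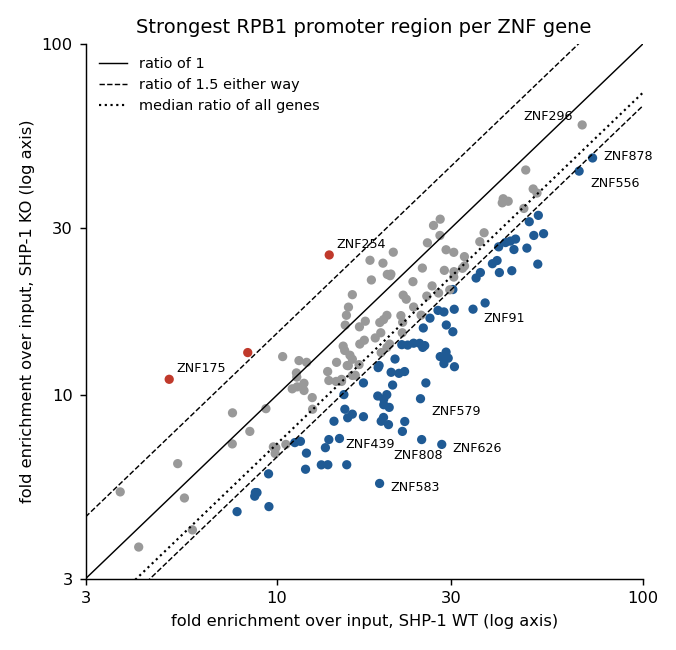
Strongest RPB1 promoter region of each chromosome 19 ZNF gene in SHP-1 WT cells (horizontal) and SHP-1 KO cells (vertical), as fold over input on log axes, with a solid line at equal values, dashed lines at the 1.5-fold limits and a dotted line at the median ratio of all genes. Of 185 points 160 lie below equality, 85 of them (blue) past the lower limit, and 3 (red) lie past the upper one.

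Phospho-Ser2 RPB1 differed between the cell types mainly by regions present in SHP-1 WT and not in SHP-1 KO cells. Of 189 symbols with a phospho-Ser2 RPB1 region in SHP-1 WT cells 34 (18.0%, 13.2 to 24.1%) had none in SHP-1 KO cells, against 14.7% of all genes, and 3 of 158 (1.90%) the other way round, against 4.92%. By position this call was weaker. Of the 33 coding genes among them, 27 had a phospho-Ser2 RPB1 region between 1 kb before the start and 3 kb after the end in SHP-1 WT cells, 14 had one there in SHP-1 KO cells under a neighbour's name, and 13 had one in SHP-1 WT and none in SHP-1 KO cells. The longest cover assigned to genes of this list was that of ZNF528 (2 regions, 1.51 kb), ZNF234 (5 regions, 1.27 kb), ZNF28 (2 regions, 0.913 kb), ZNF766 (3 regions, 0.904 kb) and ZNF320 (3 regions, 0.771 kb). Counted by position, ZNF528 had 2 phospho-Ser2 RPB1 regions and ZNF28 had 3 in SHP-1 WT cells and neither had any in SHP-1 KO cells, whereas ZNF234 had 7 and 5, ZNF766 had 9 and 5, and ZNF320 had none in either. The RPB1 promoters of ZNF234 (16.1-fold and 8.83-fold), ZNF28 (15.0 and 11.1) and ZNF766 (17.4 and 16.2) were present in both cell types. The 3 assigned a region in SHP-1 KO cells alone, ZNF441, ZNF136 and ZNF845, each had 1 promoter region, of 3.93-fold, 4.71-fold and 4.92-fold. By position ZNF441 and ZNF845 also had 2 and 3 regions in SHP-1 WT cells, under other names, and the call held for ZNF136. ZNF83 had the largest drop in number among the genes named, from 25 regions over 11.1 kb in SHP-1 WT to 4 over 1.28 kb in SHP-1 KO cells (10 and 0 by position), with an RPB1 promoter of 50.4-fold and 28.5-fold.

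The difference was followed along 186 ZNF genes with RPB1 at the start in both cell types, which takes out genes whose promoter was marked in 1 cell type. In the 3 kb after the gene end phospho-Ser2 RPB1 was found at 133 genes in SHP-1 WT and 100 in SHP-1 KO cells. At 34 of the 186 (18.3%, 13.4 to 24.5%) it was found in SHP-1 WT cells alone, against 8.88% of all genes selected in the same way, and at 1, ZNF17, in SHP-1 KO cells alone, against 2.43%. In the 3′ UTR of the last exon the genes were 110 and 73, with 39 (21.0%) in SHP-1 WT cells alone, against 10.1%, and 2 in SHP-1 KO cells alone, against 3.94%. In the interior they were 70 and 47, with 30 (16.1%) against 12.3% and 7 against 3.05%. At the start they were 104 and 90, with 25 (13.4%) against 11.7% and 11 (5.91%) against 6.64%, near the background. The covered length, SHP-1 KO over SHP-1 WT, was 0.819 at the start, 0.678 in the interior, 0.632 in the coding part of the last exon, 0.685 in the 3′ UTR and 0.707 after the end. For 9910 other genes it was 0.862, 0.821, 0.817, 0.878 and 0.862. The gap to other genes was thus smallest at the start. RPB1 at the starts covered 204 kb in SHP-1 WT and 172 kb in SHP-1 KO cells (0.845, against 0.909). With the stricter −log10 q-value of 5 the genes with phospho-Ser2 RPB1 after the end in 1 cell type alone were 28 for SHP-1 WT (15.1%, against 9.83%). For SHP-1 KO they were 6 (3.23%, against 3.27%), which is near the background. Within 1 kb of the end they were 37 (19.9%, against 9.59%) and 2 (1.08%, against 3.64%). Region size and number depend on depth, which was not compared between the libraries.

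Over the whole body of the 235 genes the median share of bases under phospho-Ser2 RPB1 was 2.13% in SHP-1 WT and 0.486% after the knockout. The median over 16538 genes also fell, from 0.548% in SHP-1 WT to 0 in SHP-1 KO cells. The share was larger in SHP-1 WT cells at 128 genes (54.5%), against 41.4% of all genes, larger in SHP-1 KO cells at 26, against 15.4%, and 0 in both at 81. The genes with the highest cover in SHP-1 WT cells read 68.9% and 62.7% at ZNF324, 57.7% and 41.8% at ZNF444, 56.1% and 43.7% at ZNF556, 52.4% and 34.7% at ZNF526 and 47.4% and 53.1% at ZNF614. Of these ZNF614 alone was higher in SHP-1 KO cells.

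**Figure D4:**
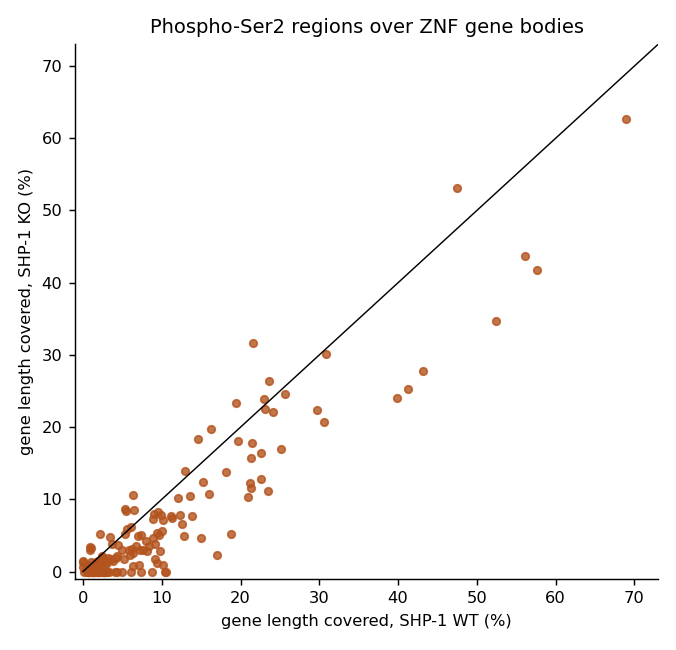
Share of the gene body (percent) covered by phospho-Ser2 RPB1 regions in SHP-1 WT cells (horizontal) and SHP-1 KO cells (vertical), with a line at equal values, for the 154 chromosome 19 ZNF genes with any cover in either. More points lie on the SHP-1 WT side, 128 against 26, and ZNF324 is highest with 68.9% and 62.7%.

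Along the chromosome the coding ZNF genes fell into 9 clusters of at least 5 genes, separated by gaps of over 1 Mb, and 11 isolated genes. RPB1 counts differed little between the cell types in most clusters, whereas phospho-Ser2 RPB1 counts ran from near equality to a small remnant. At the end of the short arm, the 5 genes from ZNF554 to ZNF77 (chr19:2819868-2944971) had 29 and 30 RPB1 regions in SHP-1 WT and KO cells and 46 and 43 phospho-Ser2 RPB1 regions, and all 5 had an RPB1 promoter region in both cell types. The 15 genes from ZNF557 to ZNF846 had 45 and 28 RPB1 regions, the lowest RPB1 ratio (0.622), and 76 and 53 phospho-Ser2 RPB1 regions. ZNF846 held the strongest promoter there, 43.4-fold and 27.5-fold, with 7 and 2 phospho-Ser2 RPB1 regions. The 25 genes from ZNF653 to ZNF791 (chr19:11483427-12640098), with ZNF878 and ZNF440, had the highest median promoter fold, 30.4 and 22.7, and 162 and 123 phospho-Ser2 RPB1 regions, and 24 of 25 had RPB1 at the start in SHP-1 WT cells.

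The 37 genes from ZNF101 to ZNF254 (chr19:19668796-24129968) lie beside the centromere and include ZNF91, ZNF626 and ZNF208. RPB1 was at 21 of their starts in SHP-1 WT cells, the lowest share of the clusters, with a median promoter fold of 16.7 and 10.9. RPB1 regions were 39 and 38 and phospho-Ser2 RPB1 regions 142 and 87, a ratio of 0.974 against 0.613, and 39.4% (31.8 to 47.7%) of the phospho-Ser2 RPB1 regions of SHP-1 WT cells were met in SHP-1 KO cells. ZNF253 had the strongest promoter (41.5-fold and 36.3-fold) and more phospho-Ser2 RPB1 regions in SHP-1 KO cells, 14 against 10. ZNF626 had 14 and 3 and ZNF254 had 26 and 20.

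On the long arm the 5 genes from ZNF302 to ZNF792 had 17 and 4 phospho-Ser2 RPB1 regions, the lowest ratio (0.235) but on few regions, with 9 and 7 for RPB1. ZNF181 was the strongest of them (40.5-fold and 22.3-fold). The 26 genes from ZNF565 to ZNF573 had 31 and 32 RPB1 and 80 and 47 phospho-Ser2 RPB1 regions (1.03 and 0.588), and the 24 from ZNF575 to ZNF296 had 30 and 35 and 62 and 39 (1.17 and 0.629). The median promoter fold of the latter, 11.3 and 10.4, was the lowest of the clusters although it holds ZNF296 and ZNF428. The 39 genes from ZNF175 to ZNF331 (chr19:51571283-53580269) had 74 and 57 RPB1 regions and 176 and 89 phospho-Ser2 RPB1 regions (0.770 and 0.506), and 39.8% (32.8 to 47.1%) of the phospho-Ser2 RPB1 regions were met in SHP-1 KO cells. ZNF83, ZNF528, ZNF28, ZNF766, ZNF320 and ZNF808 belong to it. The largest cluster, 59 genes from ZNF628 to ZNF446 at the end of the long arm, had 136 and 121 RPB1 regions and 279 and 251 phospho-Ser2 RPB1 regions (0.890 and 0.900), and 59.1% (53.3 to 64.6%) of the phospho-Ser2 RPB1 regions were met. ZNF837 had its strongest promoter, 50.2-fold and 38.7-fold. With −log10 q-values below 5 left out, the phospho-Ser2 RPB1 counts of these last 2 clusters were 89 and 41 (0.461) and 140 and 117 (0.836), so their order was the same. The isolated genes, among them ZNF546 and ZNF780B, had 68 and 52. Copy number of the clusters in the 2 lines was not tested.

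**Figure D5:**
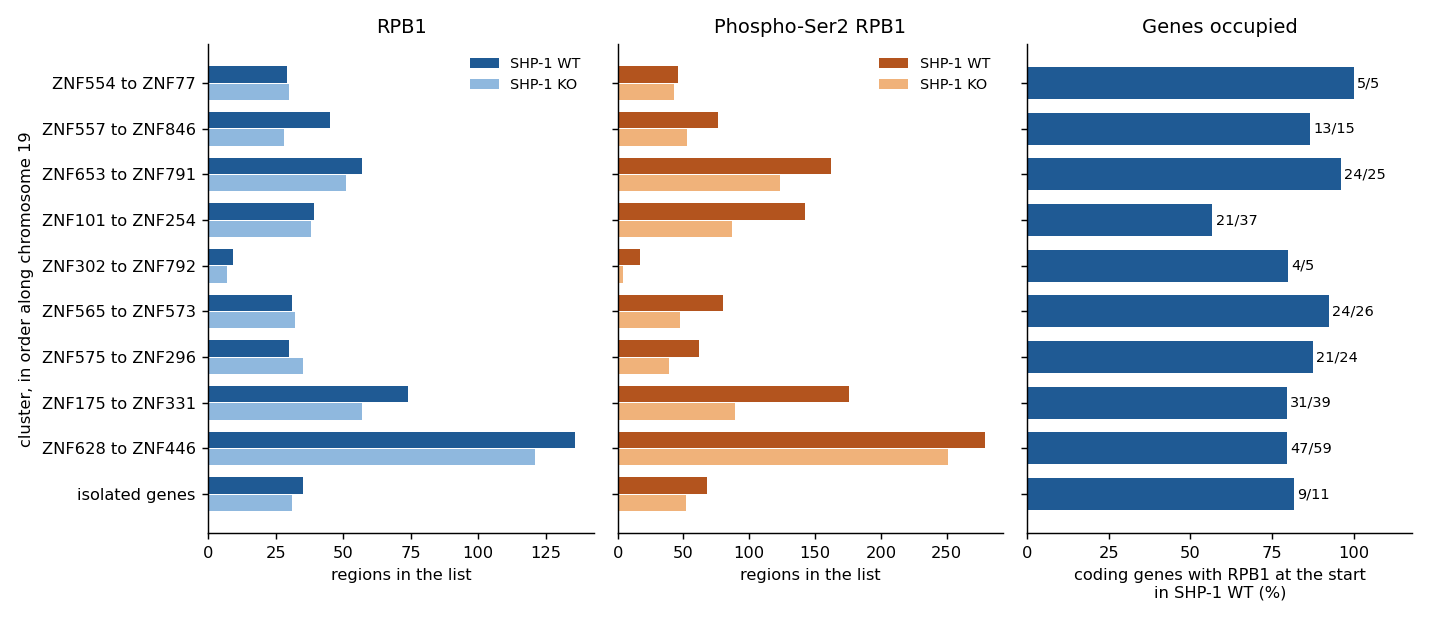
Number of RPB1 regions (left) and phospho-Ser2 RPB1 regions (middle) in SHP-1 WT and KO cells, and the share of coding genes with RPB1 at the start in SHP-1 WT cells (right, percent), for each cluster of ZNF genes in chromosome order and the isolated genes. The paired bars of phospho-Ser2 RPB1 differ most for ZNF175 to ZNF331, with 176 and 89, and the share of marked starts is lowest for ZNF101 to ZNF254, with 21 of 37.

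Among the genes of known role, RPB1 promoters were lower in the SHP-1 KO library at all that were marked in both cell types except ZNF175. ZNF91, a repressor of SVA retrotransposons, had 14 and 7 phospho-Ser2 RPB1 regions over 4.08 and 2.04 kb. ZNF274, which brings SETDB1 to the 3′ ends of ZNF genes, read 28.6-fold and 12.3-fold for RPB1 and had 20 and 16 phospho-Ser2 RPB1 regions over 10.7 and 7.77 kb. ZNF331, an imprinted gene, read 21.6-fold and 11.5-fold with 6 and 3 regions. ZNF224, a KRAB repressor, read 15.3-fold and 9.12-fold with 1 and 0 assigned and 6 and 1 by position, and ZNF350, a partner of BRCA1, 8.70-fold and 5.16-fold with 6 and 4. ZNF444 read 14.6-fold and 12.4-fold with 13 and 16. The neighbours ZNF324 and ZNF324B read 25.5-fold and 10.8-fold and 13.8-fold and 6.34-fold, and ZNF324B had no phospho-Ser2 RPB1 region by assignment or position. ZNF324, with 2 regions over 2.20 kb in SHP-1 WT and 3 over 1.30 kb in SHP-1 KO cells by assignment, had the highest body cover by position.

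The genes through which KRAB zinc finger proteins act were marked in both cell types. All 13 corepressor and heterochromatin genes listed had an RPB1 promoter region in both libraries, and 11 in SHP-1 WT and 10 in SHP-1 KO cells had a phospho-Ser2 RPB1 region. TRIM28, itself on chromosome 19, read 169.7-fold and 146-fold, above every ZNF promoter. SETDB1 read 11.1-fold and 11.6-fold, CBX3 75.7-fold and 45.0-fold, and DNMT1, the maintenance DNA methyltransferase, 51.1-fold and 28.3-fold. ATRX, a chromatin remodeller, read 18.97-fold and 10.4-fold. Of the HUSH complex and its partner, TASOR read 45.9-fold and 23.1-fold and MPHOSPH8 18.0-fold and 7.29-fold. MORC2 read 4.19-fold and 58.7-fold, in the opposite direction to most of the list. Its phospho-Ser2 RPB1 promoter regions went the other way, 11 of up to 6.35-fold in SHP-1 WT and 3 of up to 3.65-fold in SHP-1 KO cells. These genes were read by assigned gene only, and whether a MORC2 start region was listed under another name was not tested.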

How the data were processed

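The data are 4 ChIP-seq libraries of HepG2 cells, 1 for each antibody (RPB1, phospho-Ser2 RPB1) and cell type (SHP-1 WT, SHP-1 KO), grouped by the labels. Lines were derived from single cells, and which clone was sequenced is not given in the sources used here. Per the study's methods, the authors ran the MUGQIC pipeline, with trimming by Trimmomatic, alignment to hg38 by BWA and MACS2 narrow peak calls against input. Versions are not given in the sources used here. The deposited lists hold each region's fold over input at its summit (a ratio), −log10 p- and q-values and a display score, with the authors' annotation of the nearest gene. No counts of reads were used, so depth is unknown. A deposited table of the authors' own differential binding comparison (fold changes and p-values) was not used, and the input libraries were not analysed here.

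Members were the rows on chromosome 19 whose symbol began with ZNF and a number. The members and the gene lists were chosen with earlier results of these data known. Positions are 1-based hg38, and every region ended within the chromosome lengths of the reference genome. GENCODE 44 matched 226 of 227 symbols and 478 of 497 transcripts, and RefSeq promoters (GRCh38.p14) matched 216 of 246 coding ZNF genes. Overlap was at least 1 bp. Clusters were split at gaps over 1 Mb between neighbouring ZNF genes. Counts of regions by position, whatever gene was named for them, were added after the data had been seen. A gene was called higher or lower where the ratio of its strongest promoter region passed 1.5. Genes were named by fixed rules: the 5 strongest RPB1 promoters in SHP-1 WT cells, the 5 longest phospho-Ser2 RPB1 covers, the strongest promoter of each cluster, up to 5 genes marked in 1 cell type alone for each antibody, the 5 highest and 5 lowest ratios, and genes of known role. Genes printed for their sequence, start or body cover outside these rules (ZNF208, ZNF77, ZNF382, ZNF625, ZNF865, ZNF570, ZNF526, ZNF614, ZNF17, ZNF788P and those without a region) were chosen after their values were seen. Alternatives were a −log10 q-value minimum of 5, distinct intervals, a 50% reciprocal overlap, a narrower promoter, a positional gene end, other cluster gaps and scaling to all genes. Python 3.11.15, pandas 2.3.3, NumPy 2.4.6, SciPy 1.17.1 and matplotlib 3.10.9 were used, and the overlap and interval functions were tested on simulated data.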

Additional observations from a re-analysis of the deposited data

How the results depend on the processing

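No paired analysis was possible because each antibody and cell type had 1 library, and for the same reason no library could be left out. Without regions under a −log10 q-value of 5, region counts were 304 (RPB1, SHP-1 WT), 554 and 391 (phospho-Ser2 RPB1, SHP-1 WT and KO). Promoter shares were then 72.7% and 76.4% for RPB1 and 23.6% and 28.1% for phospho-Ser2 RPB1, intron shares 13.5%, 9.59%, 29.1% and 28.1% in the same order, and RPB1 3′ end shares 6.25% and 6.16%. The stricter value also gave 79.6% of SHP-1 WT RPB1 regions met in SHP-1 KO cells, and 33.5% of SHP-1 KO phospho-Ser2 RPB1 regions met by RPB1. Promoters counted only where the region touches the start, chosen after seeing the data, gave shares of 42.5% and 48.6% for RPB1 and 10.6% and 12.3% for phospho-Ser2 RPB1. The annotated promoter class already ended 1 kb from the start, so the narrower limit planned for it changed nothing. A positional gene end gave phospho-Ser2 RPB1 3′ end shares of 17.8% and 16.6%, against 14.5% and 15.3% over all genes. A 50% reciprocal overlap gave 47.2% (RPB1) and 26.8% (phospho-Ser2 RPB1) of SHP-1 WT regions met in SHP-1 KO cells, and 4.87% and 6.22% of phospho-Ser2 RPB1 regions met by RPB1. Division by the median of all genes gave 17 promoters over 1.5 times higher and 21 lower, without a count over all genes to set beside them. Splitting clusters at 2 Mb gave a lowest phospho-Ser2 RPB1 ratio of 0.526, since the smallest cluster is then joined to others. Genes with phospho-Ser2 RPB1 after the end in SHP-1 KO cells alone were 6 at the stricter value (3.23%, against 3.27% of all genes) and 2 within 1 kb (1.08%, against 3.64%). Both settings were chosen after seeing the data. The cause of these shifts was otherwise not tested. Unknown depth limits every absence of a region.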
